A study of Mus musculus with 2 samples.

Results

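Müller glia are the radial glial cells of the retina. Their processes span the tissue from the inner limiting membrane to the outer limiting membrane, where they form adherens junctions with photoreceptors. They are known for taking up glutamate and turning it into glutamine, for buffering potassium and water, for binding retinoids in the cone visual cycle and for supplying lipids. The barcodes described here were those of the single-cell expression library in which RNA of 7 such genes (Glul, Rlbp1, Apoe, Slc1a3, Clu, Dkk3 and Car2) reached at least 5 unique molecular identifiers (UMIs), at least 1% of all UMIs other than those of mitochondrial (mt-) genes, and more UMIs than 4 rod genes (Sag, Pdc, Gngt1 and Gnat1). Thus 53 of the 834 barcodes (6.35%) were chosen by these measured values, with no filter on quality. The mirrored rule, with the 4 rod genes above the 7 glial genes, chose 692 rods for comparison, and 89 barcodes met neither rule.

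The retinas were from mice electroporated on the day of birth with 1 of 3 plasmids, an EGFP vector without insert (Control) or the same vector expressing lamin A or Lbr, and viable EGFP+ cells were sorted from the adult tissue 8 weeks later. The labels call the cell type rods, so Müller glia were not the cells aimed at, and electroporation at birth is known to reach progenitors of several retinal cell types, Müller glia among them. The cells of the 3 conditions were each stained with an oligonucleotide tag and pooled into 1 run, which gave 1 expression library and 1 tag library. The labels do not say which tag marks which condition, so barcodes were not compared by condition, and the strain of the pups and the number of animals behind each tag are not given here. There are no replicates, so no test was made. Intervals are exact 95% intervals that cover counting error only.

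The 53 barcodes held 61728 non-mt- UMIs. Their depth ranged from 253 to 17063 with a median of 645, against a median of 2010 in rods. The rule's 7 genes made up between 1.08% and 20.5% of the UMIs of a member, with a median of 2.16%. Near the thresholds, 4 members had exactly 5 rule UMIs and no barcode with 4 met the other conditions. A further 37 barcodes met the conditions on UMIs and on rods but stayed under 1%, the highest of them at 0.996%. Another 18 had as many or more UMIs of the 4 rod genes, and the member nearest to that limit exceeded them by 1 UMI. Without Apoe, 13 of the 53 would not have been chosen.

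The label did not hold for all members. Apoe, a lipid carrier, is made by Müller glia and also by microglia, the resident immune cells. In 7 members genes of microglia outnumbered the 6 rule genes other than Apoe. These 7 held 26865 UMIs, 43.5% of the members' total, of which the deepest barcode alone held 17063. All 12 microglia genes looked for were found in them, with 339 UMIs of C1qa, which encodes a complement subunit, 136 of Ctss, which encodes a lysosomal protease, and 27 of Csf1r, the receptor for the growth factor that microglia depend on. The 7 held 1430 of the 1686 Apoe UMIs of all members, no UMI of Rlbp1, Car2, Clu, Dkk3 or Slc1a3, and 19 of Glul, which were all in the deepest barcode. A further member held 270 UMIs of Ttr, the thyroid hormone carrier transthyretin, and 9 of Rpe65, the isomerase of the visual cycle, both at 0 in rods and both genes of the pigment epithelium. Another 2 members held more UMIs of cone or of bipolar genes than of the 6 rule genes.

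These 10 barcodes were set apart by a rule chosen after the values were seen: at least 2 genes of another cell type list, with more UMIs of it than of the 6 rule genes. The 43 others held 32157 non-mt- UMIs (253 to 4349 each, median 600), and no UMI of any of the 12 microglia genes or the 8 genes of the pigment epithelium. They are called Müller glia-like below, although rod RNA exceeded the glial genes in some of them. In 6 of the 43 the 22 rod genes outside the rule had more UMIs than the 7 rule genes, at most 88 against 21, and in 9 of the 43 all 26 rod genes did. The rod list was not among those used to set barcodes apart. All 53 are not given the name, since microglia genes were among the first of their list. C1qc, B2m and Trem2 had the highest ratios to rods among genes seen in 5 or more members. Genes with over 50% of their UMIs in 1 member were left out. C1qc is among the 12 microglia genes and Trem2 is a receptor of microglia, but B2m is neither. Genes of inner neurons remained in the 43. Of 33 genes of bipolar, amacrine, horizontal and ganglion cells, at least 1 was found in 22 of the 43 barcodes and in 79 of the 692 rods, at 3918 and 269 CPM (a gene's UMIs scaled to a common total of non-mt- UMIs). In none of the 43 did they exceed the rule genes, but the rule that set barcodes apart largely fixed this in advance. In 6 of the 43 the inner-neuron genes exceeded the 20 other Müller glia genes described below. The map of cell type lists by barcode shows this mixture.

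**Figure D1:**
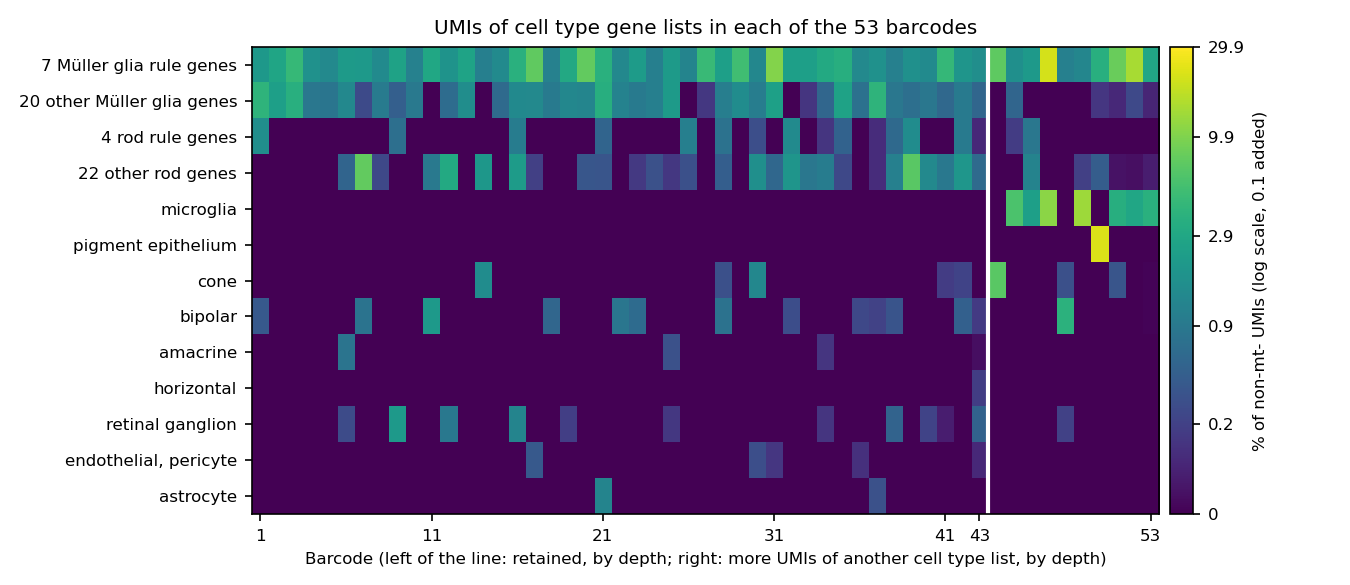
UMIs of each cell type's gene list as a percentage of the non-mt- UMIs of a barcode (colour, log scale), for each of the 53 barcodes (columns) and 13 lists (rows). Left of the white line are the 43 retained barcodes in order of depth, right of it the 10 set apart for lists other than that of rods. Microglia UMIs appear only right of the line, whereas rod and inner-neuron UMIs are scattered over the left part.

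Among the 7 genes of the rule, whose levels are a description since they chose the barcodes, Glul was the most widely detected. It encodes glutamine synthetase, which turns glutamate into glutamine, and lies at chr1:153899944-153909723 (mm10, plus strand). Glul UMIs were found in 40 of the 43 Müller glia-like barcodes, with 0 to 34 per barcode and a median of 6, and in 42 of 692 rods. In the sums it stood at 9423 against 122 CPM, a 77.1-fold difference. Rlbp1 encodes the retinaldehyde-binding protein CRALBP. It was found in 21 of the 43 (110 UMIs, at most 22 in a barcode), and 3421 CPM compared with 48.4 CPM in rods. Apoe was found in 23 of the 43 with 227 UMIs, and 7059 CPM compared with 67.8 CPM. Across all 53 its level was 27313 CPM, and this value was mostly microglial as given above.

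The other 4 rule genes differed in how well they separated the barcodes from rods. Dkk3, a secreted glycoprotein of the Dickkopf family, had 21 UMIs in 5 of the 43 and 2 UMIs in all rods. Slc1a3, the glial glutamate transporter GLAST, had only 5 UMIs in 3 barcodes. Car2, a carbonic anhydrase, was found in 23 of the 43 at 3327 CPM, but also in 306 rods at 775 CPM, a ratio of 4.29. Clu, the chaperone and apolipoprotein clusterin, was found in 9 of the 43 at 1399 CPM and in 263 rods at 691 CPM, a ratio of 2.03. Most barcodes rested on few genes of the rule: 5 of the 43 had UMIs of 1 rule gene, 16 of 2, 10 of 3 and 12 of 4 or more. Glul and Apoe were found together in 22 barcodes, Glul and Rlbp1 in 19.

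Over all genes, and leaving out the 11 rule genes and the mt- genes, 530 genes had a level worth at least 10 UMIs in the 43 barcodes. Of these, 77 (14.5%) were at least 4-fold higher in Müller glia-like barcodes than in rods, with UMIs in 3 or more barcodes, and 55 (10.4%) were at least 4-fold lower. The same comparison with all 53 members gave 140 higher (13.8%) and 151 lower (14.9%) of 1016 genes, of which 69 of the higher genes had most of their UMIs in the 7 microglia-rich barcodes. Both comparisons shared 51 higher genes (66.2% of the 77 and 36.4% of the 140) and 53 lower genes (96.4% of the 55 and 35.1% of the 151). Counts depended on the scaling. The median log2 ratio of the 530 genes was 0.73, and edgeR's TMM scaling moved it by -1.09 and gave 40 higher and 232 lower genes (14.7% of calls higher, compared with 58.3%). With all 53 it moved the median by -0.78 and gave 108 higher and 361 lower, or 23.0% higher compared with 48.1%. Without the deepest of the 43 barcodes, which held 13.5% of their UMIs, 65 genes were higher and 54 lower. Without the 9 barcodes richer in rod genes, 57 were higher and 48 lower of 400 genes measured.

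**Figure D2:**
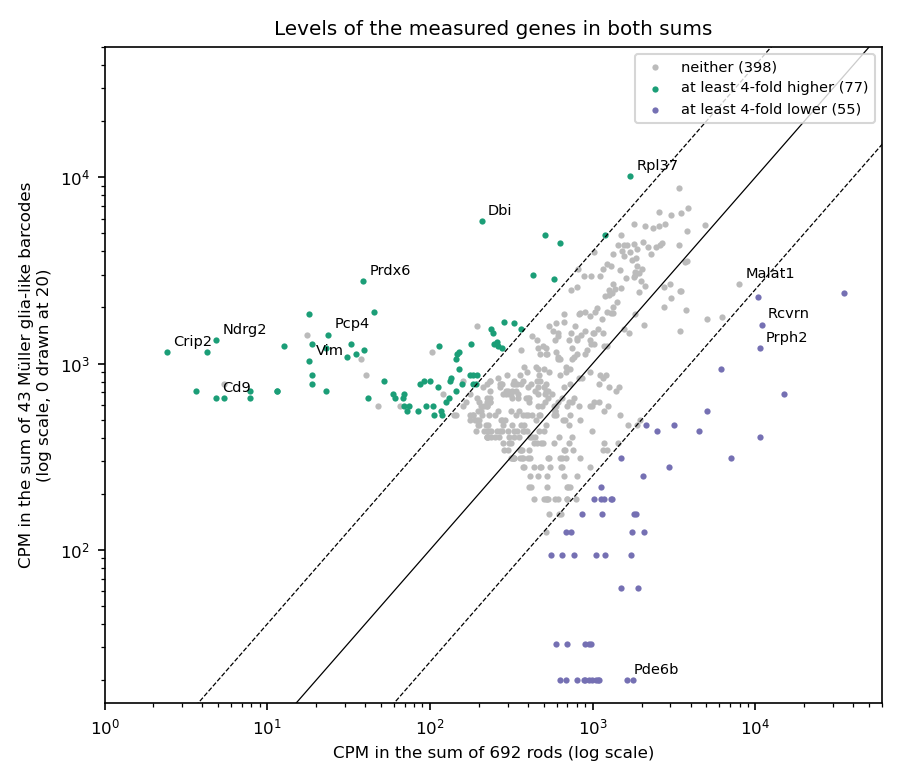
Level of each of the 530 measured genes in the sum of the 692 rods (x, CPM, log scale) and in the sum of the 43 Müller glia-like barcodes (y, CPM, log scale, 0 drawn at 20). Green points are the 77 genes at least 4-fold higher, purple points the 55 at least 4-fold lower. The solid line marks equal levels and the dashed lines 4-fold. Crip2 and Ndrg2 lie far to the left and the rod genes Rcvrn and Prph2 to the lower right.

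Of 20 Müller glia genes that the rule did not use, 18 had UMIs in the 43 barcodes, but only 3 reached the level of the filter. Dbi, Vim and Cd9 reached it only through the Müller glia-like barcodes, where they were high, so that the number of higher genes among those measured is no support for the list, here and in the lists below. Dbi, the acyl-CoA- and diazepam-binding protein (chr1:120113280-120121078, minus strand), had 187 UMIs in 32 of the 43 barcodes, at most 37 in any. Its level was 5815 CPM against 208 CPM in rods, where 66 of 692 barcodes had it, and the log2 ratio was 4.81 (4.54 to 5.06). Vim, the intermediate filament vimentin, had 33 UMIs in 11 barcodes and a log2 ratio of 5.82 (5.06 to 6.58). Cd9, a tetraspanin of glial membranes, had 21 UMIs in 7 barcodes and a log2 ratio of 7.02 (5.84 to 8.46), with 8 UMIs in all rods. The 20 genes together were found in 39 of the 43 barcodes and in 206 of 692 rods, at 10729 and 571 CPM. Without Dbi they were still found in 26 of the 43, at 4913 compared with 363 CPM.

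The remaining genes of this list were too shallow to pass the filter. Cp, the ferroxidase ceruloplasmin, had 18 UMIs in 4 barcodes and 2 in all rods. Abca8a, a lipid transporter, had 14 UMIs in 5 barcodes and Ptn, the growth factor pleiotrophin, 11 in 3. Few UMIs of genes that define mature Müller glia in tissue were found at this depth. Aqp4, the water channel of Müller glia endfeet, had 10 UMIs in 3 barcodes and 17 in all rods. Kcnj10, the potassium channel Kir4.1, had 3 UMIs in 1 barcode and 4 in all rods. The transcription factors Sox9 and Sox2 had 3 and 2 UMIs, and 7 and 5 in all rods. In CPM all of them stood higher in the 43 than in rods, although on few UMIs. Mfge8, a secreted bridge for phagocytosis, did not stand apart, with 311 CPM in the 43 and 266 CPM in rods (log2 ratio 0.29, -0.85 to 1.12).

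**Figure D3:**
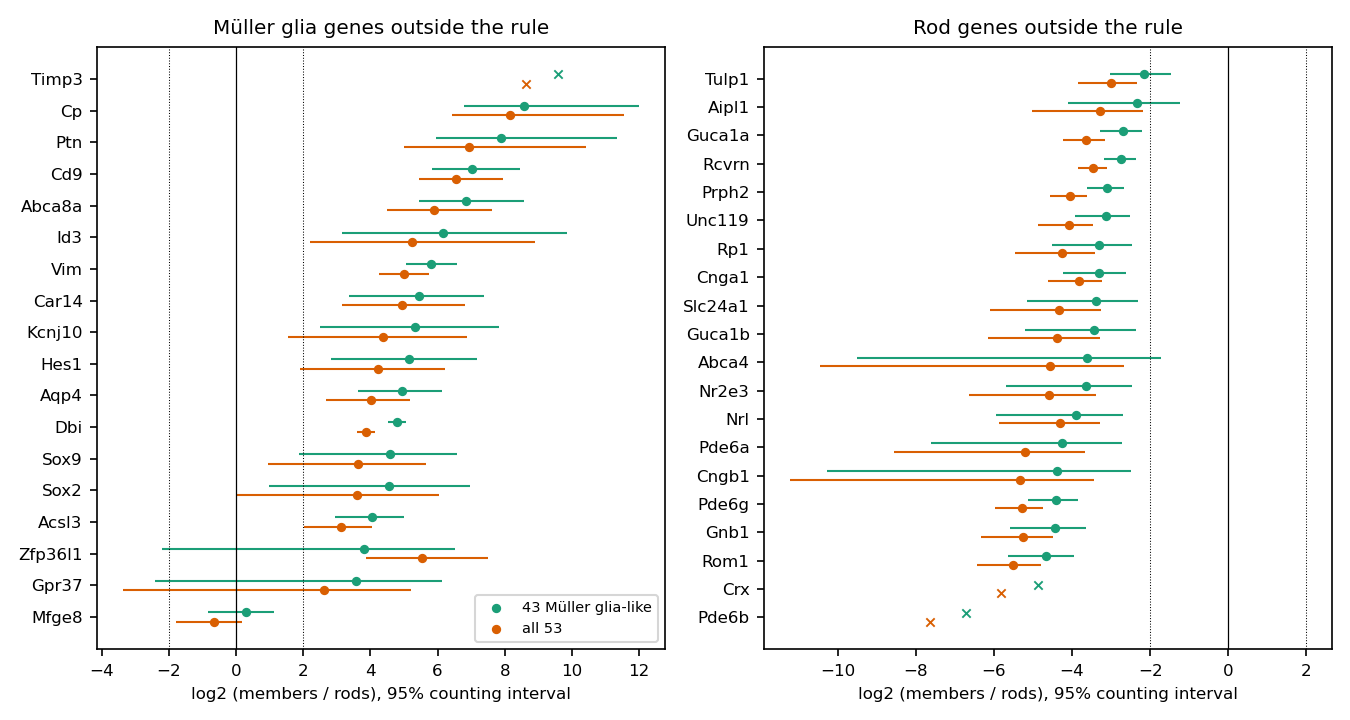
Log2 ratio of members to rods for the genes of 2 lists that the rule did not use, with 0.5 UMIs added to both sums. Points are ratios and lines are exact 95% counting intervals, in green for the 43 Müller glia-like barcodes and in orange for all 53. Crosses mark genes with 0 UMIs on one side, whose fitted ratio is no bound, and dotted lines mark 4-fold. The 18 Müller glia genes drawn lie above 0, except Mfge8 with all 53 barcodes, although the intervals of Mfge8, Gpr37 and Zfp36l1 reach below 0, and the 20 rod genes drawn lie below it.

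Detection per barcode depends on depth, so every barcode was also thinned to 350 non-mt- UMIs, which left out 3 of the 43 and 4 of the rods. Glul was then found in 82.5% of 40 Müller glia-like barcodes (67.2 to 92.7) and in 2.03% of 688 rods (1.12 to 3.39). Without thinning these shares were 93.0% and 6.07%, at median depths of 600 and 2010 UMIs. Dbi was found in 60% (43.3 to 75.1) and 4.65% after thinning, compared with 74.4% and 9.54% before. Prdx6 was found in 40% (24.9 to 56.7) and 1.02%, and 44.2% and 2.02% before. Clu did not separate the barcodes by detection, at 15% (5.71 to 29.8) and 16.1% after thinning. UMIs of rare genes came in groups, since 68.9% of the values of genes seen in 2 to 5 of the 43 barcodes were 2 or more, so the counting intervals of sums are too narrow for such genes.

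**Figure D4:**
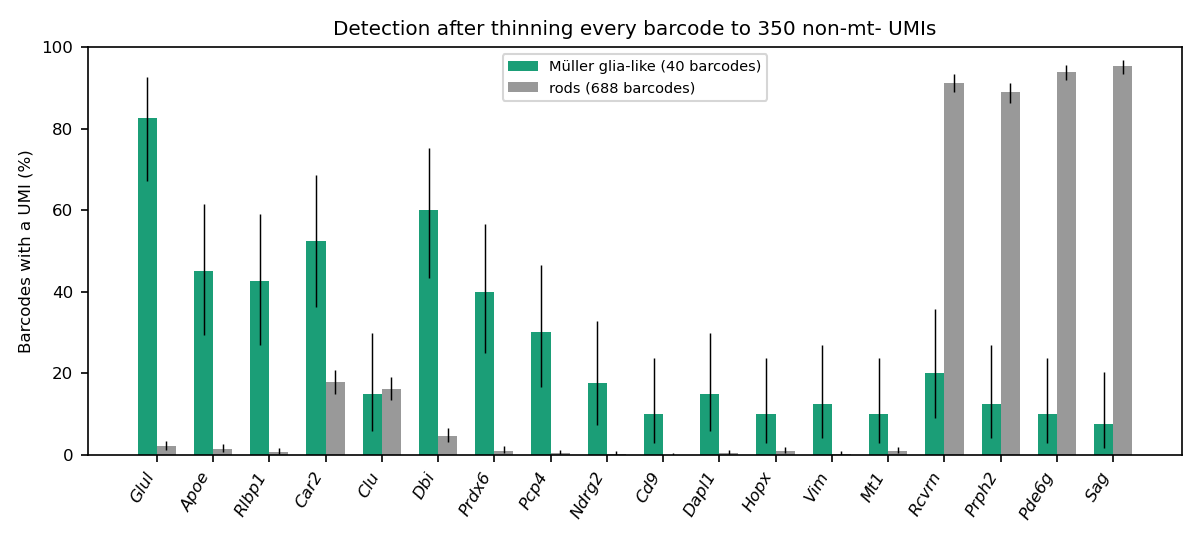
Percentage of barcodes with at least 1 UMI of a gene after thinning to 350 non-mt- UMIs, in 40 Müller glia-like barcodes (green) and 688 rods (grey). Bars start at 0 and lines are exact 95% binomial intervals. Green bars are the higher ones from Glul to Mt1 except for Clu, where both are level, and the 4 rod genes on the right stand at 89.0% or above in grey.

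The 20 genes with the highest ratios seen in 5 or more Müller glia-like barcodes included several that were in nearly no rod. Crip2, a LIM-domain protein, led with 37 UMIs in 5 of the 43 barcodes and 4 UMIs in all rods (log2 ratio 8.74, 7.42 to 10.84). Ndrg2, a glial member of the NDRG family, followed with 43 UMIs in 9 barcodes and 8 in rods (8.04, 7.0 to 9.41). Fxyd1, a regulator of the sodium pump, had 37 UMIs in 8 barcodes, of which 17 were in a single one (log2 ratio 8.0). Sparc, a secreted matrix protein, had 59 UMIs, 28 of them in 1 of its 5 barcodes (6.65). The widest in this group was Prdx6, an antioxidant peroxiredoxin, with 89 UMIs in 19 of the 43, never more than 9 in any, and 64 in rods (6.16, 5.68 to 6.65).

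Others of the 20 were Dapl1 (41 UMIs in 10 barcodes, log2 ratio 6.08), Crym, the thyroid hormone-binding protein mu-crystallin (23 in 8, 5.95), the homeodomain-only protein Hopx (25 in 8, 5.38) and the inhibitory G protein subunit Gnai2 (28 in 7, 5.54). Some were genes of neurons. Pcp4, a calmodulin-binding protein of many neurons, had 46 UMIs in 14 barcodes (5.92, 5.27 to 6.58). Stmn1, a microtubule-destabilizing protein, had 40 UMIs in 9 barcodes (6.60), and Nrsn1, a neuronal vesicle protein, had 23 in 6 (6.48). On the fixed lists, Gng13 and Pcp2 of bipolar cells were also higher, with 21 UMIs each in 6 and 4 barcodes (log2 ratios 3.44 and 3.99). Sncg and Stmn2 of ganglion cells had 17 UMIs each in 4 and 3 barcodes and were under the filter. The part of inner-neuron RNA in these ratios was not tested.

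Groups of genes with known glial roles were mostly too shallow to count. Of 9 genes of neurotransmitter uptake and recycling, 2 outside the rule were measured. Slc6a6, the taurine transporter, was lower, with 6 UMIs in 2 of the 43 barcodes and 1935 UMIs in 421 rods (log2 ratio -2.53, -4.10 to -1.53). Got1, an aspartate aminotransferase, had a ratio of -0.01. Slc1a2, the glutamate transporter GLT-1, had no UMI in the 43 and 350 CPM in rods, at least 3.75-fold lower. Of 9 genes of ion, water and pH balance, Atp1b2 alone was measured, a subunit of the sodium pump. It was lower, with 4 UMIs against 1213 in rods (-2.39, -4.44 to -1.20). No gene of retinoid handling outside the rule was measured. Of 11 genes of lipid transport and metabolism, Dbi alone was measured and higher.

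Redox and metal-binding genes were the list with the most higher genes among those of glial function. Of 17 listed, 6 were measured in the 43 barcodes and 4 were at least 4-fold higher: Prdx6, the metallothionein Mt1 (35 UMIs in 7 barcodes, log2 ratio 5.15), the superoxide dismutase Sod1 (25 in 5, 3.19) and the ferritin light chain Ftl1 (96 in 19, 2.79, 2.47 to 3.1). Over all 530 measured genes 14.5% were higher. Genes high in the 43 reach the filter more easily, so the count is no support for the list. With TMM scaling Ftl1 fell below 4-fold. The lipid peroxidase Gpx4 differed little (3514 and 3690 CPM, log2 ratio -0.06), and the ferritin heavy chain Fth1 had a ratio of 0.45, which lies below 0 with TMM scaling. Of 11 genes of glycolysis, glycogen and lactate, 5 were measured. Ldhb, the heart-type lactate dehydrogenase subunit, was higher with 37 UMIs in 7 barcodes (2.95, 2.40 to 3.44). Ldha, the muscle-type subunit, had 746 CPM in the 43 and 1444 CPM in rods (-0.92), and the glycolytic enzymes Aldoa and Pkm had ratios of -0.95 and -0.42.

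Few markers of reactive gliosis were detected at this depth. Of 17 such genes, 6 had UMIs in the 43 barcodes, and the 2 measured were Vim and Cryab, a small heat shock protein (39 UMIs in 9 barcodes, log2 ratio 5.72, 5.04 to 6.40). Together the 17 genes had 96 UMIs in the 43, most of them from Vim, Cryab and Cp. Their summed level was 2985 CPM, against 157 CPM in rods. Gfap, the filament of reactive glia and astrocytes, had 3 UMIs in a single barcode, and Serpina3n, Lcn2, Timp1 and Cd44 had none, and a count of 0 allows up to 93.3 CPM each. Immediate early and dissociation genes were low, with 12 UMIs of 4 of 19 genes in the 43 and a summed level of 373 CPM, against 401 CPM in rods. In the 7 microglia-rich barcodes the same 19 genes summed to 6328 CPM, with all 170 UMIs in 2 barcodes. Of 19 glial and progenitor transcription factors, 15 had UMIs and 1 was measured, Rax, a homeobox gene of the eye field, with 19 of its 28 UMIs in 1 of 3 barcodes (2.26, 1.62 to 2.79). Nfia, a nuclear factor I gene, had 8 UMIs in 5 barcodes and 8 in all rods.

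The genes that the study misexpressed could not be seen in these barcodes. Lmna had no UMI in the 43, where 3 UMIs would be 93.3 CPM. In rods it stood at 27.8 CPM, from 46 UMIs in 5 barcodes, of which 35 were in 1. Its 2 UMIs among the 53 were in 1 microglia-rich barcode. Lbr had no UMI in any of the 53 and 73.2 CPM in rods. A difference from rods was thus not detectable at this depth for either gene. Of 14 nuclear lamina and envelope genes, Emd alone was measured, which encodes emerin, with 19 UMIs in 5 barcodes of which 11 were in 1 (log2 ratio 3.02, 2.21 to 3.69). The 9 genes of the outer limiting membrane junctions were all under the filter, and Crb1, a polarity gene, had no UMI in the 43 compared with 278 CPM in rods, at least 2.98-fold lower.

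Rod RNA was low but present. All 22 rod genes that the rule did not use were below rods, and of the 20 measured in the 43 barcodes all 20 were at least 4-fold lower, as were all 22 with all 53 members. Over all measured genes 10.4% were lower with the 43 and 14.9% with all 53. The rods were chosen by other rod genes, and genes high in rods reach the level filter more easily. These counts are therefore no support for the list. Rcvrn, the calcium sensor recoverin, had 52 UMIs in 9 of the 43 barcodes and was found in 672 of 692 rods (log2 ratio -2.74). Prph2, the outer segment protein peripherin-2, had 39 UMIs in 9 barcodes (-3.11). Pde6b, a phosphodiesterase subunit, had none, and was at least 17.4-fold lower. The genes with over 3 UMIs lay between 3.80% (Rom1, an outer segment tetraspanin) and 21.9% (Tulp1, a tubby-like protein) of their rod level, with a median of 9.08% over 16 genes. The counting intervals of Rom1 and Tulp1 were -5.63 to -3.94 and -3.03 to -1.47 as log2 ratios. Both were picked as the extremes of the 16 genes, and Tulp1 had only 15 UMIs in 3 barcodes. A difference between rod genes was not tested. Of the 43 barcodes, 13 had no UMI of any of 26 rod genes, and the rod genes' share of UMIs had a median of 0.579% and a highest value of 8.40%. In rods it ranged from 1.81% to 37.7%.

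Other genes with the lowest ratios included several known from photoreceptors and their synapse. Neurod1, a transcription factor of photoreceptors, Slc17a7, the vesicular glutamate transporter, Stx3, the syntaxin of ribbon synapses, and Reep6, a rod membrane-shaping protein, had no UMI in the 43. They were at least 10.6-fold, 10.2-fold, 9.49-fold and 11.2-fold lower. Rbp3, the interphotoreceptor retinoid-binding protein, had 2 UMIs against 3135 (log2 ratio -4.61, -7.98 to -3.08). Ybx3, a cold shock domain protein, and the phosphatase Ssu72, both also made in other tissues, had none against 1816 and 1492, and Pcmtd2 and AI847159 had none against 1778 and 1319.

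The promoters of the 55 lower genes were searched for a sequence feature. The core site of the photoreceptor homeodomain factors CRX and OTX2 is TAATCC (on the other strand it reads GGATTA). It was searched on both strands in the 250 bases before each RefSeq start (GRCm38.p6). It was found in 12 of 45 windows of the lower genes (26.7%, 14.6 to 41.9), for 38 of 55 genes that matched by symbol. It was found in 1 of 81 windows of the higher genes (1.23%, 0.0313 to 6.69), that of Cd9, for 60 of 77 genes. Over all 32851 windows the share was 6.25%. ACAATG, a SOX-type core, was found in 8.89% of the lower, 8.64% of the higher and 10.7% of all windows. Matches are descriptions, and some windows of a gene overlap. The lower genes were called against rods, which were chosen by rod genes, and genes high in rods reach the level filter more easily. A larger share of a photoreceptor site among them is therefore no independent feature of the Müller glia-like barcodes. The share among the windows of all measured genes was not tested, so 6.25% is not a matched background. The windows of 3 lower genes are shown with the match in capitals, because they carry the feature, and that of Glul because it has none. They are chr14:33953753-33954002 (plus strand), chr11:72037510-72037759 (minus), chr17:47400607-47400856 (minus) and chr1:153899679-153899928 (plus), each 5′ to 3′:
Rbp3: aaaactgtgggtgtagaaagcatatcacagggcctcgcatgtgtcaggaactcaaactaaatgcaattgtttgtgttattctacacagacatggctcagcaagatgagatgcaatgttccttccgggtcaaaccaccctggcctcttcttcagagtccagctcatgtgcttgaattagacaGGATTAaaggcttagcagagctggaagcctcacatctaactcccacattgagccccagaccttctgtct
Aipl1: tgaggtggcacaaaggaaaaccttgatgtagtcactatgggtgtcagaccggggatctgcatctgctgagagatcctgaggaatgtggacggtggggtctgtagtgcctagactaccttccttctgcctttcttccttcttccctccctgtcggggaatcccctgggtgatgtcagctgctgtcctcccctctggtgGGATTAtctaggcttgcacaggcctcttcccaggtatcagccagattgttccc
Guca1a: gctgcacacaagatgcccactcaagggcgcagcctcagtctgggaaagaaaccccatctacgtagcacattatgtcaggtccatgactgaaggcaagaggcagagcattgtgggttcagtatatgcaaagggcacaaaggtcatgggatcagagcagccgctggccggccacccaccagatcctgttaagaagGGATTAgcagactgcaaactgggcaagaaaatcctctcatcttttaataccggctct
Glul: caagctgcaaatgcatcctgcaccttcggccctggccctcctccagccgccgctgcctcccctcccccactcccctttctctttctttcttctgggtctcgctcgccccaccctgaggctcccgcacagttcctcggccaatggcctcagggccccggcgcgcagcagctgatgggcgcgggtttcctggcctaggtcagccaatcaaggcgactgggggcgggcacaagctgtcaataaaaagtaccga

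Ribosomal protein genes made up more of the RNA. Their share of non-mt- UMIs had a median of 23.8% in the 43 barcodes (quartiles 15.3% and 28.2%) and 10.9% in rods (8.30% and 13.3%). In the 103 rods missing from the barcode list of the tag library, whose median depth was 673 UMIs, the median was 11.5%. Of 71 ribosomal protein genes measured, 67 had a log2 ratio above 0, with a median of 1.06, but with TMM scaling 34 of 71 were above 0 and the median was -0.03. Their median was 0.33 above that of all measured genes. Scaling moves all ratios by the same amount, so this difference cannot change with it. Rpl37 (325 UMIs in 32 barcodes, log2 ratio 2.57, 2.40 to 2.74) and Rpl35 (2.14) were at least 4-fold higher. Other widely detected higher genes were the prolyl isomerase Ppia (143 UMIs in 28 barcodes, 2.82), Tmsb10, an actin-binding thymosin (40 in 18, 3.46), and Mgarp, a mitochondrial protein (158 in 30, 2.04). With TMM scaling the ratios of Rpl37, Rpl35, Ppia, Mgarp, Ftl1, Ldhb, Rax and Emd fell below 4-fold but stayed above 0.

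Mitochondrial transcripts made up a larger share of the UMIs of Müller glia-like barcodes than of rods. The share of all UMIs from the 13 mt- genes had a median of 50.7% in the 43 (quartiles 36.0% and 58.7%, range 1.06% to 70.5%), 46.8% in all 53, 10.9% in the 7 microglia-rich barcodes and 16.1% in rods. In the 103 rods missing from the barcode list of the tag library, which were closer to the 43 in depth, the median was 32.8%. A high share was thus not particular to the Müller glia-like barcodes. Relative to non-mt- UMIs all 13 genes were higher in the 43 than in rods, with log2 ratios from 2.19 for mt-Nd3 to 3.19 for mt-Atp8, which had only 100 UMIs. Mt-Co1, a subunit of cytochrome c oxidase, stood at 3.07 and mt-Cytb, of complex III, at 2.21. The limits that the study set for a cell (200 to 2500 genes and at most 18% mt-) were met by 3 of the 43, 7 of the 53 and 377 of the 692 rods.

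Most of these barcodes were missing from the barcode list of the tag library. The 3 tags of that library carry the sequences below, shown because they mark the pool of cells that a barcode came from.
Tag 1: GGAGAAGA
Tag 2: CCACAATG
Tag 3: TGAGACCT
Of the 53 members, 42 (79.2%, 65.9 to 89.2) were not among the 645 barcodes listed for the tag library. All 645 were also in the expression library. Of the 43 Müller glia-like barcodes, 38 were missing (88.4%, 74.9 to 96.1), and of the 692 rods 103 were (14.9%, 12.3 to 17.8). Of the 7 microglia-rich members 3 were missing. The 5 Müller glia-like barcodes with a tag were called to tag 1 (3 barcodes), tag 2 (1) and tag 3 (1), too few to compare between tags, and the calls of rods were 254, 280 and 36.

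Presence in the barcode list of the tag library went with the quality of a barcode. The barcodes in it had at least 211 genes and at most 29.8% mt- UMIs, and all 42 missing members, like all 103 missing rods, lay outside those limits. Of barcodes over 30% mt-, 37 of 37 members and 73 of 73 rods were missing. Of those up to 30%, 5 of 16 members and 30 of 619 rods were. Median gene numbers were 176 in the 43, 500 in rods and 200 in the 103 missing rods. Whether the missing barcodes had tag reads was not examined. The part of depth and mitochondrial share in their absence from the list was not tested.

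**Figure D5:**
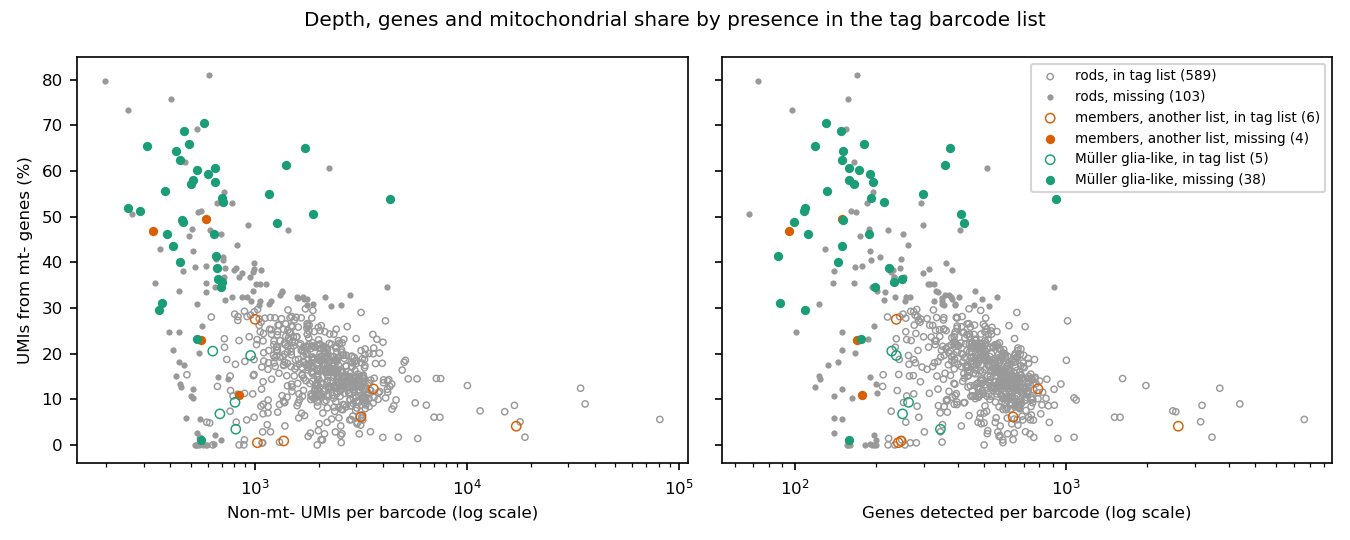
Percentage of UMIs from mt- genes (y) against non-mt- UMIs (left) and detected genes (right, both log scales) for rods (grey), the 43 Müller glia-like barcodes (green) and the 10 other members (orange). Filled points are barcodes missing from the barcode list of the tag library, open points those in the list. Most green points are filled and lie above 30% mt- or below 211 genes.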

How the data were processed

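Single-cell RNA and sample tags were measured in 1 pooled 10x Genomics Chromium run. The authors made the deposited counts, which are UMIs per gene and barcode against mm10, with Cell Ranger (6.1.2 in the submitters' processing notes, 3.1.0 in the file header), and analysed cells with Scanpy 1.9.1. Their table of tag calls holds deposited fractions (the probability of a single tag), which were not used beyond the calls. No source used here names the annotation release, and gene positions are from GENCODE vM21 by identifier.

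UMIs were summed per set of barcodes without a filter on quality or doublets, and scaled to CPM of non-mt- UMIs. Log2 ratios had 0.5 UMIs added to both sums. A gene was measured where the mean of both CPM values was worth at least 10 UMIs in the members' sum, and called at 4-fold with UMIs in at least 3 barcodes of the higher set. A count of 0 was bounded by 3 counts over the set. The ratios and intervals were tested on simulated counts without grouping of UMIs by barcode. How well the intervals hold in these data was thus not tested. Depth was 253 to 17063 non-mt- UMIs per member, and PCR or capture effects are not in the counting intervals.

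Besides the rule genes and fixed lists, the 20 genes with the highest and the 10 with the lowest ratio were named, if seen in at least 5 barcodes of the higher set and with at most 50% of its UMIs in 1 barcode. The members and lists were chosen with earlier results of these data known, and the division into 43 and 10 barcodes, the promoter search and genes named outside this rule (such as Rpl37, Ppia, Tmsb10, Mgarp and Rbp3) were chosen after the values were seen. Some genes of the lists are counted in the list totals and are not reported here by name. Alternatives concerned scaling, thresholds and barcodes. Work was done in python 3.11.15 (numpy 2.4.6, scipy 1.17.1, pandas 2.3.3, matplotlib 3.10.9) and, for TMM, edgeR 4.0.16 in R 4.3.3.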

Additional observations from a re-analysis of the deposited data

How the results depend on the processing

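No paired analysis was possible because there is 1 expression library and no test. With all 53 members, the 140 higher and 151 lower genes became 270 and 283 with a level minimum of 5 UMIs, 62 and 68 with 20, and 335 and 1494 with none. They became 4 and 10 with each barcode counted once per gene, 82 and 69 without the top barcode of each gene, 68 and 57 without Apoe in the rule, 82 and 62 without barcodes with 2 or more microglia genes, 77 and 55 with the 43 retained barcodes, 65 and 54 also without the deepest of these, and 57 and 48 without the 9 of these with more rod than rule-gene UMIs. Lower genes alone changed by over 1.5 times with TMM (361), median of ratios (345), totals with mt- UMIs (245) and barcodes with at least 200 genes (100). The 4 higher Müller glia genes became 8, 1 and 12 with the 3 level minimums, 1 with barcodes counted once, 7 with averaged CPM, and 2 with a 2% rule, with at least 200 genes, with at most 50% mt- UMIs or without the deepest retained barcode. The 22 lower rod genes became 4 with barcodes counted once. The share missing from the tag library's barcode list was 47.6% among members with at least 200 genes and 64.5% among those with at most 50% mt- UMIs. The median mt- share of these members was 27.5% and 29.6%. The causes were not tested, apart from the fewer genes or barcodes that a setting leaves. Of 924 ratios of 44 named genes under 21 alternatives, 174 left the counting interval and 0 changed sign. These genes were named for their extreme ratios, so a change of sign could hardly occur, and its absence is no support for them. Depth limits which list genes could be measured, since 10 UMIs in the 43 barcodes are 311 CPM.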
